A study of Homo sapiens with 4 samples.

Results

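Poly(A) site clusters (PACs) that used the signal AUUAAA without AAUAAA were examined in KYSE30 and TE-1, cell lines of human esophageal cancer. A PAC was taken when it had a TPM above 5 in at least 1 of 4 libraries, TPM being sequenced tags scaled to the size of the library. Its dominant site, the position with the most tags, had to lie in a protein-coding 3′ UTR of GENCODE release 44 on the same strand. AUUAAA had to stand in the 50 nt upstream of that site and AAUAAA had to be absent there. These variant-only PACs numbered 1947 of 11666 3′ UTR PACs above the minimum, or 16.7% (Wilson 95% interval 16.02 to 17.4). The 14055 PACs above the minimum in any region and the 17627 PACs listed in all made up the whole set. Canonical PACs, which hold AAUAAA in the same window, numbered 7946 (68.1%), and 1773 held neither hexamer.

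PAS-seq, which reads the 3′ ends of polyadenylated RNA, was carried out on 1 library for each of 4 groups. KYSE30 or TE-1 cells received 20 mM L-lactate for 24 h or PBS as the control. Apart from the line and L-lactate, no other agent or allele is given for any group. The cell line field of the controls names KYSE32 and TE-3, while their titles and the study's methods name KYSE30 and TE-1, and the titles were followed. Since each group is 1 library, no spread between replicates exists and no test was run. Intervals cover counting error over tags or over PACs only, PACs are not replicates, and PCR copies of tags were not separated.

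The hexamer upstream of a cleavage site is bound by CPSF4 and WDR33 in the cleavage and polyadenylation specificity factor. AAUAAA is the common form in human genes, and AUUAAA is the most frequent single-base variant, which is processed less efficiently in reporter assays. CstF contacts GU-rich and U-rich sequence downstream of the cleavage site, and CFIm, whose small subunit is NUDT21, binds UGUA upstream and favours the sites that carry it.

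The sequences below show how the variant signal sits before the dominant site at the most abundant variant-only PAC, at genes described later and at canonical PACs of the same genes. They are DNA letters of GRCh38 on the transcribed strand, 5′ to 3′, and each 30 nt stretch ends at the dominant site. Capitals mark ATTAAA, or AATAAA in the canonical PACs.
EEF1A1, variant-only, chr6:73517519-73517548, minus strand: attttgagacccATTAAAaaagttaaatga
EEF1A1, canonical, chr6:73515751-73515780, minus strand: ctcactacAATAAAtgaattttaagcttta
PRDX6, variant-only, chr1:173487983-173488012, plus strand: ccaatggcttATTAAAtgaaaatggcacta
PRDX6, canonical, chr1:173488777-173488806, plus strand: gaacaaAATAAAatcctttgttaaaactgg
GOLT1B, variant-only, chr12:21516173-21516202, plus strand: ttttaaagtATTAAAaccaaggaaacccca
GOLT1B, canonical, chr12:21518129-21518158, plus strand: acctctcAATAAAagggtacttttctatta
CPSF4, variant-only, chr7:99457343-99457372, plus strand: tttatgaaatggATTAAAgcttgtttttta
RPL27, variant-only, chr17:43002918-43002947, plus strand: tagatgctttgttttgatcATTAAAaatta
BET1, variant-only, chr7:93994226-93994255, minus strand: tttattggattATTAAActgaggtgatgca
PITX1, variant-only, chr5:135027734-135027763, minus strand: ATTAAAaccatagtccgagcgtgctaagca
The last base of the signal lies 12 nt before the site in EEF1A1 and CPSF4, 15 nt in GOLT1B, 5 nt in RPL27 and 24 nt in PITX1. The sites lie in 3′ UTR exons, namely exon 8 of EEF1A1-201, exon 5 of GOLT1B-201, exon 5 of RPL27-201, exon 4 of BET1-201 and exon 3 of PITX1-201. In BET1 the 3′ UTR begins at position 93994229 and the site is at 93994226 on the minus strand. The marked hexamer of BET1, 13 nt before the site, thus lies ahead of the 3′ UTR.

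The libraries held 7174991 (KYSE30 L-lactate), 7425554 (KYSE30 control), 8468958 (TE-1 L-lactate) and 10393799 tags (TE-1 control), as read from the size of 1 tag in the TPM values. Variant-only PACs took 13.4% to 13.6% of the TPM in 3′ UTR PACs in each library, against 77.5% to 78.3% for canonical PACs. Of the 1947 members, 1672 were listed in all 4 libraries, 66 in 3, 202 in 2 and 7 in 1. The tables list only PACs above a minimum of the authors, so an unlisted PAC may still have had tags. Among epithelial markers (EPCAM, CDH1, KRT8, KRT18, KRT19), 3 of 5 were listed in every library, with sums of 4911 and 4932 TPM in KYSE30 and 1175 and 1209 TPM in TE-1, where CDH1 and KRT19 were unlisted in the control. Of 6 squamous markers, S100A2 was listed in all libraries and KRT17 in TE-1, while TP63, KRT5, KRT14 and SFN had no listed 3′ UTR PAC in either line. CD68 was listed at 3.48 to 15.2 TPM and COL1A1 at 4.84 and 5.39 TPM in TE-1, while COL1A2, COL3A1, PTPRC, CD3E, PECAM1 and VWF were unlisted.

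AUUAAA stood at the same place in variant-only PACs as AAUAAA in canonical PACs. Its last base was a median of 16 nt before the dominant site (interval 15 to 16, quartiles 14 and 18), and the median of AAUAAA was 16 nt (quartiles 14 and 19). In 1822 of 1947 members (93.6%) the signal ended 10 to 30 nt before the site, against 94.0% in canonical PACs. It ended closer than 10 nt in 94 members and 31 nt or more away in 31. A single copy was found in 1875 members and 2 or more in 72. AUUAAA was also present in 388 canonical PACs, where it lay 10 to 30 nt from the site in only 56.2% (51.2 to 61.0). In 4 other windows of 50 nt, which lay farther upstream or downstream of the site, AUUAAA was found in 2.39% to 2.91% of all 3′ UTR PACs, against 20.02% in the window used.

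**Figure D1:**
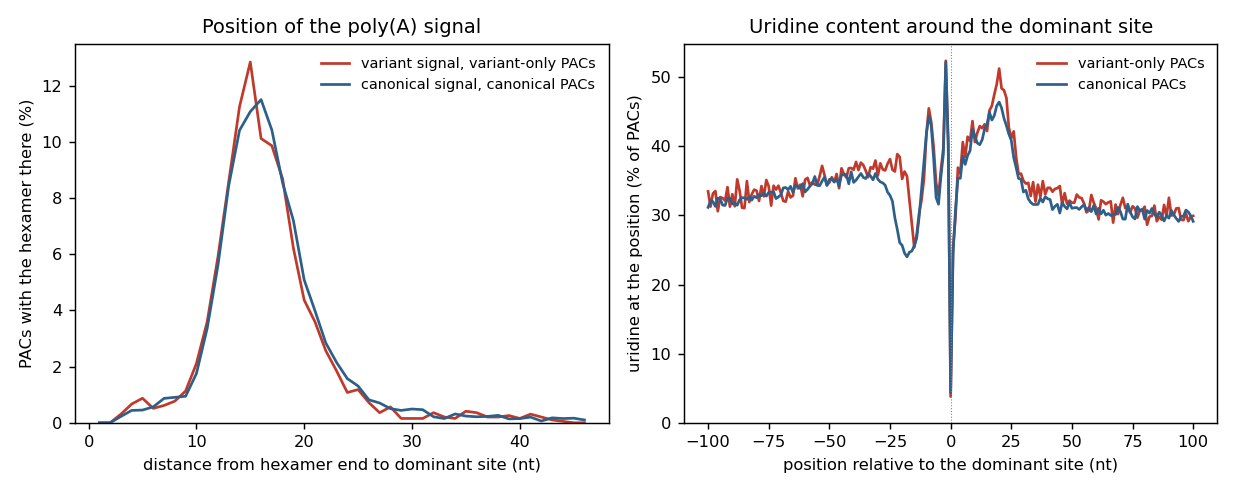
Left, share of PACs (%) whose signal ends at each distance (nt) before the dominant site. Right, share of PACs (%) with a uridine at each position (nt) around the dominant site. Red lines show 1947 variant-only PACs and blue lines 7946 canonical PACs. The left curves peak at 15 and 16 nt, and 20 nt downstream the red line stands at 51.3% and the blue at 46.4%.

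AUUAAA was by far the most common of the searched hexamers where AAUAAA was absent. It was found in 1947 of 3720 such PACs (52.3%), before UAUAAA in 10.5%, AGUAAA in 10% and AAUAUA in 7.74%. Hexamers overlap and 1 PAC can hold several, so these shares do not add up. Any of the 10 rarer variants occurred in 25.7% of variant-only PACs and in 27.2% of canonical PACs, so a rarer variant beside the main signal was about as common in both. Among PACs with neither signal it was 71.6%.

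The bases next to the signal differed between the classes. The base before AUUAAA was A in 30.6% of variant-only PACs (28.6 to 32.7), whereas A preceded AAUAAA in 41.9% of canonical PACs (40.8 to 42.9). The base after the signal was A in 42.0% (39.8 to 44.2) and 37.2% (36.2 to 38.3). The dominant site itself was an A in 91.8% and 91.6%. A total of 7 or more A among the 10 nt after the site, consecutive or not, was counted as a sign of priming inside a transcript. It was present in 1.54% of variant-only PACs, 1.03% of canonical PACs and 1.39% of all 3′ UTR PACs.

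Auxiliary motifs were counted on the transcribed strand in fixed windows. UGUA, the CFIm motif, was within 100 nt upstream of 58.6% of variant-only and 56.7% of canonical PACs, a difference of 1.93 percentage points whose interval (Newcombe) ran from -0.52 to 4.36. In the window 40 to 100 nt upstream, which leaves out the signal region, the shares were 46.4% and 42.1%, differing by 4.32 points (1.86 to 6.79), with 42.7% over all 3′ UTR PACs. UGUG in the 50 nt downstream was found in 42.1% of variant-only and 37.6% of canonical PACs, differing by 4.54 points (2.11 to 6.98), with 39.7% over all. UUUUU there was found in 27.5% and 26.3%, differing by 1.23 points (-0.94 to 3.47), with 26.9% over all. GUUG there was found in 20.3% and 19.8%, with 20.1% over all. UGUG and the distal UGUA window were thus more frequent at variant-only PACs beyond counting error over PACs, while the intervals of the UUUUU and the wider UGUA differences include 0. PACs with neither signal had UGUG downstream in 46.4%.

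A variant-only PAC was the only 3′ UTR PAC above the minimum in many genes. In all, 1849 of 9111 genes with a 3′ UTR PAC had at least 1, and 1159 of them had variant-only PACs and no other class. Of these, 1109 had a single PAC and 50 had several. A further 558 genes had both a variant-only and a canonical PAC. Another 7 members lay in the 3′ UTRs of more than 1 gene and were left out of counts by gene.

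Among genes with several 3′ UTR PACs, variant-only PACs lay upstream of another PAC more often than canonical PACs. They did so in 501 of 831 cases (60.3%, 56.9 to 63.6) against 1353 of 2818 (48.0%, 46.2 to 49.9), a difference of 12.3 points (8.44 to 16.03), with 55.2% over all 3′ UTR PACs of such genes. PACs with neither signal were upstream in 74.1%. Being in a gene with several PACs was also more common, at 42.8% against 35.7% (difference 7.15 points, 4.72 to 9.60), with 38.8% over all 3′ UTR PACs. For PACs with neither signal it was 48.4%. Read by position, variant-only PACs made up 15.6% of PACs that were alone in their gene, 19.8% of the most upstream, 21.7% of those between others and 16.4% of the most downstream. Canonical PACs made up 71.6%, 54.0%, 56.5% and 72.7% of the same positions.

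A pair of variant-only PACs was found in 80 genes and 3 or more in 5 genes, among them INSIG1, MED21, SOAT1 and TRIM32, which were named after their values were seen. All 3 PACs of INSIG1, which holds the SREBP escort SCAP in the ER, were variant-only, and the most downstream one led with 78.0 and 70.0 TPM in KYSE30 and 159 and 174 TPM in TE-1 (control, then L-lactate). The 3 PACs of the Mediator subunit MED21 were also all variant-only, and its middle PAC led with 18.0 to 22.1 TPM. TRIM32, a ubiquitin ligase, also led with its middle PAC, at 22.9 and 23.1 TPM in KYSE30 and 15.1 and 15.9 TPM in TE-1.

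Variant-only PACs held fewer tags than canonical PACs in each library. Their median TPM was 18.7 in KYSE30 control, 18.5 in KYSE30 L-lactate, 19.1 in TE-1 control and 19.0 in TE-1 L-lactate, against 22.9, 23.0, 22.2 and 22.9 TPM for canonical PACs. As the mean of the 4 libraries, with an unlisted value taken as 0, the medians were 17.6 TPM (16.2 to 18.9) and 21.6 TPM (20.6 to 22.3), and 19.3 TPM over all 3′ UTR PACs. Among genes with a single PAC, where position within the gene plays no part, the medians were 21.7 TPM (19.5 to 23.3) and 24.3 TPM (23.0 to 25.3), and these intervals overlap. Upstream of another PAC they were 12.5 TPM (10.7 to 14.4) and 16.1 TPM (14.4 to 18.0), and at the most downstream position 14.5 TPM (11.7 to 17.4) and 18.5 TPM (16.6 to 20.6). The dominant site held a median of 76.0% to 77.2% of the tags of a variant-only PAC and 77.4% to 77.8% of those of a canonical PAC. Median widths were 6 and 5 nt.

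**Figure D2:**
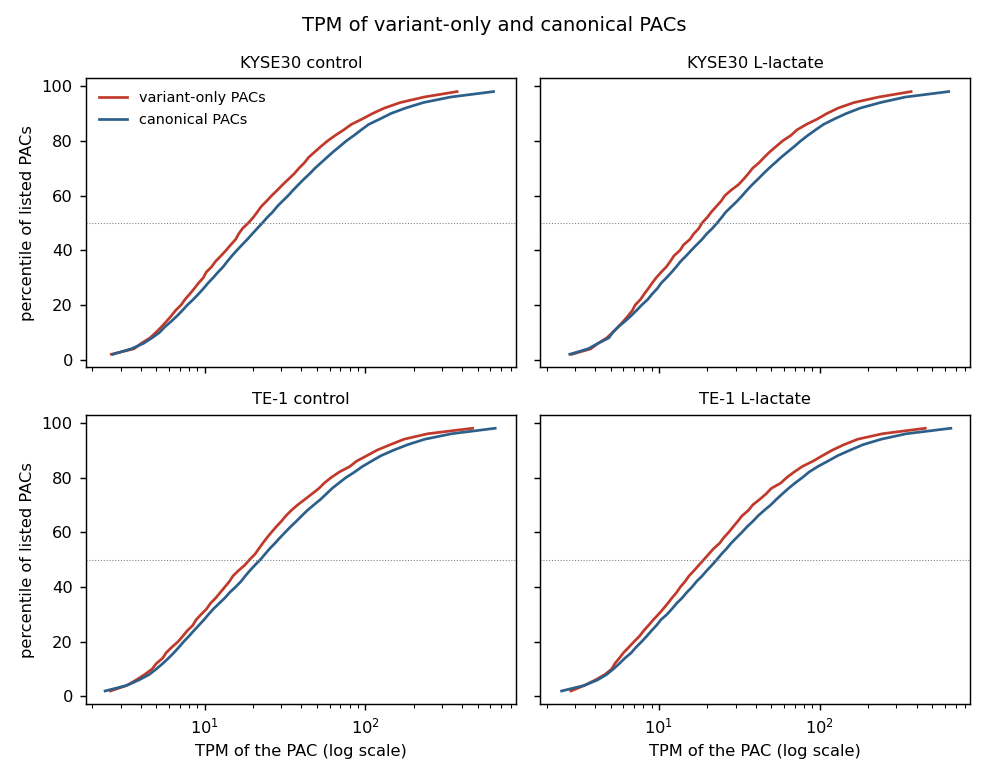
TPM of each PAC (log scale) against its percentile among listed PACs, 1 panel per library, with variant-only PACs in red and canonical PACs in blue. The dotted line marks the median, where the red curve lies at 18.5 to 19.1 TPM and the blue at 22.2 to 23.0 TPM.

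Of the 10 most abundant variant-only PACs, 5 were of cytosolic ribosomal protein genes and 1 of EEF1A1. Most PACs of ribosomal protein genes were canonical, as counted below. EEF1A1, the elongation factor that brings aminoacyl-tRNA to the ribosome, had 6090 and 5999 TPM in KYSE30 (control, then L-lactate) and 4244 and 3842 TPM in TE-1. RPS4X, an X-linked small subunit protein, had 4012 and 3792 TPM in KYSE30 and 4408 and 3933 TPM in TE-1. RPL35A, of the large subunit, had 5199 and 5122 TPM in KYSE30 and 2913 and 2833 TPM in TE-1. RPL38, RPL27 and RPL18 followed, with 1263 to 4321 TPM over the libraries. The 10 highest also held PRDX1, a peroxiredoxin (2079 to 2289 TPM), CCT6A of the chaperonin TRiC (873 to 2021 TPM), SEC61G of the ER translocon (523 to 1582 TPM) and the ER chaperone CANX (905 to 1005 TPM). With L-lactate none of the 10 moved past 1.5-fold in either line, and their ratios to control lay between 0.889 (RPL38 in TE-1) and 1.10 (SEC61G in KYSE30). EEF1A1 and the ribosomal protein genes have many near-identical processed copies, so their counts depend on how multiply mapped reads were handled, which is not given in the sources used here.

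Gene lists were set beside the share of 16.7% over all 3′ UTR PACs. The lists were 6 of 3′ end machinery and 18 chosen by gene symbol, and in 24 of 24 the Wilson interval of the variant-only share held 16.7%. Oxidative phosphorylation genes had 17 variant-only PACs of 83 (20.5%, 13.2 to 30.4), among them ATP5MC3 at 789 to 1064 TPM and ATP5PD at 480 to 674 TPM. Cytosolic ribosomal protein genes had 12 of 95 (12.6%, 7.38 to 20.8), with 74 canonical, and mitochondrial ribosomal protein genes 16 of 87 (18.4%, 11.6 to 27.8). ZNF genes had 37 of 272 (13.6%, 10.03 to 18.2), proteasome genes 7 of 60 (11.7%, 5.77 to 22.2) and keratin genes 0 of 13, with an upper bound of 22.8%. Symbol lists can hold unrelated genes with alike symbols. Small lists have wide intervals, as in the hexamer readers with 1 of 3 (33.3%, 6.15 to 79.2). At these sizes the intervals cannot show whether a list differs from the whole.

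In the 3′ end machinery, 4 of 31 PACs were variant-only. CPSF4, a subunit that reads the hexamer, had a single PAC and it was variant-only, with 82.4 and 85.6 TPM in KYSE30 (control, then L-lactate) and 83.2 and 81.2 TPM in TE-1. The single PACs of WDR33, the other reader, and of CPSF1 held neither hexamer. CPSF2, a subunit beside the endonuclease, had its most downstream PAC variant-only, at 22.5 and 24.3 TPM in KYSE30 and 34.4 and 32.4 TPM in TE-1. CSTF3, the CstF subunit known for a truncated transcript that ends early in the gene, had a variant-only upstream PAC at 36.2 and 37.6 TPM in KYSE30 and 56.3 and 45.7 TPM in TE-1. The downstream canonical PAC of CSTF3 had 21.5 and 27.9 TPM in KYSE30 and 28.9 and 39.6 TPM in TE-1, or 1.29-fold (1.05 to 1.60) and 1.37-fold (1.17 to 1.61) the control with L-lactate. The CFIm subunit gene CPSF6 had a variant-only PAC between its 2 canonical ones, at 1.89 and 2.09 TPM in KYSE30 and 2.41 and 5.90 TPM in TE-1. The upstream canonical PAC of CPSF6 stood at 98.7 and 143 TPM in KYSE30 and 127 and 246 TPM in TE-1. NUDT21 had canonical PACs alone.

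Where a gene had exactly 2 PACs in its 3′ UTRs, the share of TPM in the distal one (distal usage) differed with the classes of its PACs. A PAC that was unlisted in a library was taken as having no tags there. With canonical PACs at both places (654 genes), median distal usage was 50.4% in KYSE30 control, 49.5% in KYSE30 L-lactate, 43.0% in TE-1 control and 44.2% in TE-1 L-lactate. With a variant-only proximal and a canonical distal PAC (237 genes), it was 67.3%, 65.7%, 58.0% and 63.1% in the same order. With the order turned round (141 genes), it was 53.9%, 54.7%, 53.2% and 53.0%. With 2 variant-only PACs (47 genes), it was 68.0%, 65.9%, 59.2% and 60.8%. Over the 4 libraries, distal usage averaged a median of 65.1% (54.2 to 70.9) with a variant-only proximal and a canonical distal PAC and 45.8% (42.6 to 50.8) between canonical PACs, and these intervals do not overlap. A proximal PAC with neither signal before a canonical one gave 69.9% (66.2 to 75.1, 290 genes), so distal usage was also high behind PACs without either hexamer. Where the distal PAC held neither signal behind a variant-only proximal PAC, distal usage was 44.6% (29.9 to 56.9, 37 genes). Over all 1629 genes with 2 PACs it was 54.7% (51.6 to 57.6). Within a single 3′ UTR exon, the median was 65.8% for a variant-only then a canonical PAC (219 genes) and 42.4% between canonical PACs (538 genes).

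**Figure D3:**
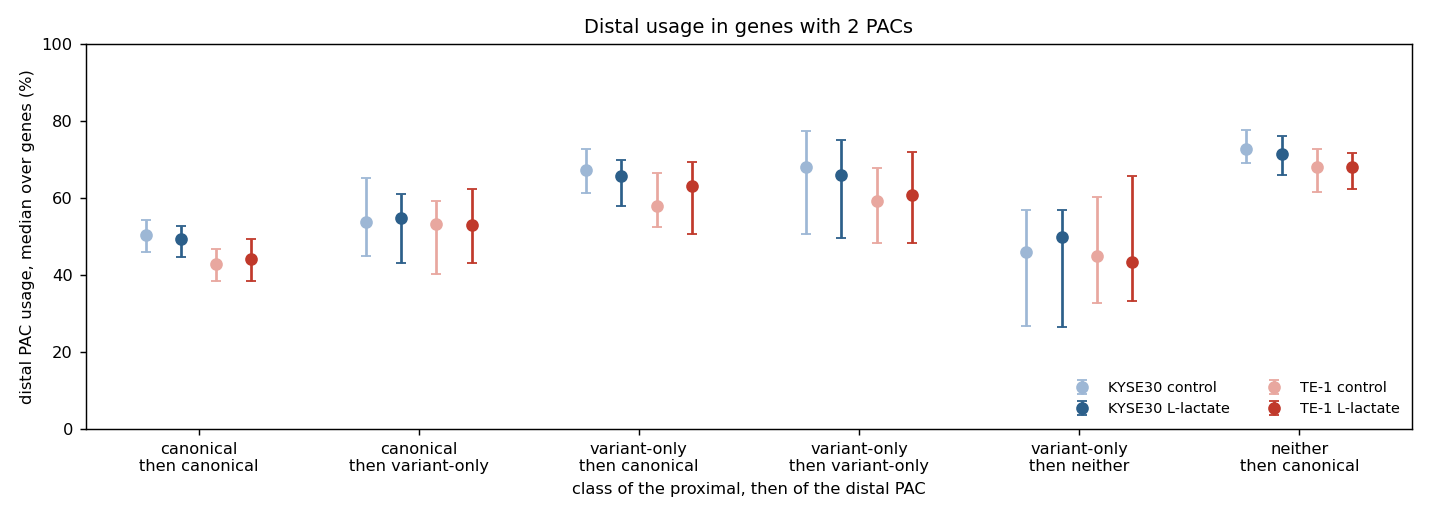
Median distal usage (%) in genes with 2 PACs, by the class of the proximal and the distal PAC, for each library. Points are medians over genes and bars their exact binomial 95% intervals. In each library the points for a variant-only PAC before a canonical or another variant-only PAC (58.0% to 68.0%) lie above those between canonical PACs (43.0% to 50.4%), while those before a PAC with neither signal lie at 43.5% to 50%.

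In the 378 genes that paired a variant-only with a canonical PAC, the variant-only PAC held a median of 43.5% of the TPM of the pair (36.1 to 51.2), an interval that includes an even split. It was 34.9% (29.1 to 45.8) where the variant-only PAC was proximal and 55.1% (45.7 to 61.0) where it was distal. The spread between genes was wide, with quartiles of 18.3% and 72.6%. The median spacing of the PACs was 1575 nt with the variant proximal and 1447 nt with it distal, against 1925 nt between canonical PACs.

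The pairs with the most tags cover this range. The proximal variant-only PAC held nearly all tags in EEF1A1 (98.4% to 99.3%) and RPL35A (99.4% to 99.6%). In the cold-inducible RBM3 it held 99.3% and 99.6% in TE-1, and the distal canonical PAC was unlisted in KYSE30. By contrast, in DSTN, an actin-depolymerising factor, the proximal variant-only PAC held 6.78% to 8.84%, and in CBX3, the chromodomain protein HP1γ, 21.4% to 28.95%. Distal variant-only PACs held 0.185% to 0.452% in RPS3, 1.24% to 1.79% in the ER chaperone HSPA5, 11.5% to 12.9% in the glycolytic enzyme PGK1 and 66.5% to 88.0% in the splicing factor SFPQ. SFPQ differed by line, at 87.0% and 88.0% in KYSE30 and 68.4% and 66.5% in TE-1.

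Among these most abundant pairs, the Wilson intervals of control and L-lactate were apart in both lines for PRDX6, RPL22 and CAST. For PRDX6, a peroxiredoxin with phospholipase activity, usage of the proximal variant-only PAC was 54.7% (53.6 to 55.8) in KYSE30 control, 49.6% (48.4 to 50.7) in KYSE30 L-lactate, 54.2% (53.3 to 55.1) in TE-1 control and 46.4% (45.4 to 47.4) in TE-1 L-lactate. It was thus 5.12 and 7.80 points of usage away from control, toward the canonical distal PAC. For RPL22, of the large ribosomal subunit, usage of the distal variant-only PAC was 44.99% and 42.2% in KYSE30 and 35.8% and 28.5% in TE-1, toward the canonical proximal PAC. For CAST, the calpain inhibitor calpastatin, usage of the distal variant-only PAC was 54.0% and 59.1% in KYSE30 and 56.4% and 64.5% in TE-1, toward the variant. The directions of these 3 genes were thus not the same, either by class or by position.

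Of 241 such pairs with more than 20 TPM in all libraries, usage of the variant-only PAC was at least 5 points higher with L-lactate in both lines in 11 and lower in 10, with 5 going opposite ways. These 21 genes (8.71%, 5.77 to 12.95) compare with a background of 8.52% over all genes with 2 PACs under the same rule, where distal usage was higher in 4.21% and lower in 4.31%. The share was thus near the background, and the genes below are described one by one. GOLT1B, a Golgi transport protein, had the proximal variant-only PAC at 14.6% (11.01 to 19.1) and 28.6% (24.3 to 33.3) in KYSE30 and at 28.6% (24.3 to 33.4) and 38.1% (33.6 to 42.8) in TE-1 (control, then L-lactate). MAP3K7, the kinase TAK1, had it at 45.01% and 52.3% in KYSE30 and 42.6% and 55.2% in TE-1. MSANTD7, SLC35C2 and SSBP3 were also higher, with differences from 6.78 to 11.7 points. On the lower side, HSBP1, which binds heat shock factor 1, had 73.9% (72.3 to 75.5) and 67.4% (65.7 to 69.1) in KYSE30 and 85.4% (84.3 to 86.5) and 75.3% (73.8 to 76.8) in TE-1. FAM104A, with the variant distal, had 65.1% and 52.6% in KYSE30 and 63.4% and 54.6% in TE-1. EXOC2 of the exocyst and FAR1, a fatty acyl-CoA reductase, were lower by 6.17 to 10.6 points. NIPSNAP3A had 15.3% and 33.3% in the controls and 16.5% in TE-1 L-lactate, and its variant-only PAC was not listed in KYSE30 L-lactate. Of these 10 genes, GOLT1B, SLC35C2 and HSBP1 had Wilson intervals of control and L-lactate that were apart in both lines, while in the others they overlapped in at least 1 line or the PAC was unlisted. The genes were picked for the largest changes the same way in both lines, which favours intervals that are apart, so this adds no separate evidence. The variant-only PAC of SLC35C2 rested on 18 to 51 tags.

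**Figure D4:**
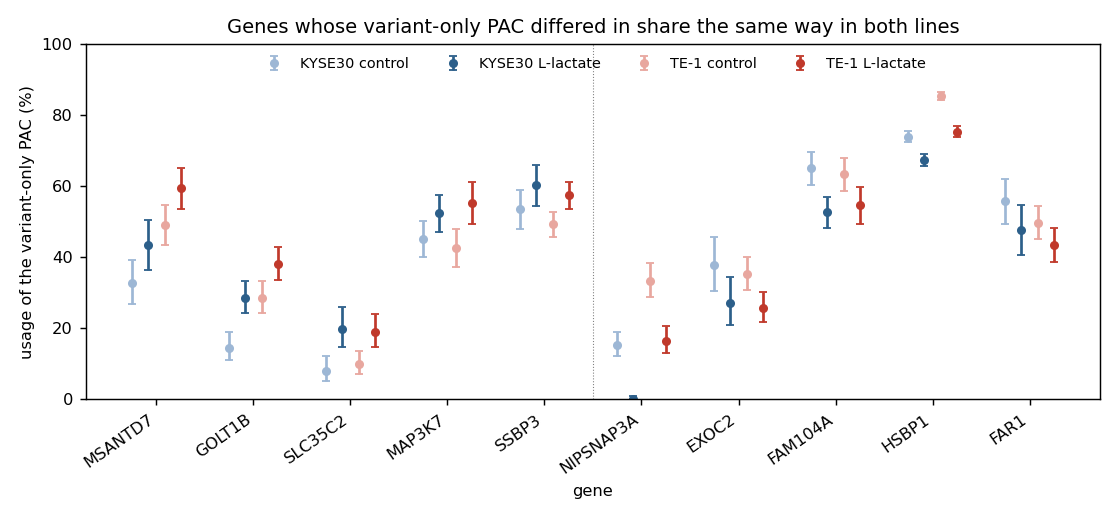
Usage of the variant-only PAC (%) in 10 genes with 1 variant-only and 1 canonical PAC, by library. Points are shares of tags and bars Wilson 95% intervals. The 5 genes left of the dotted line were higher with L-lactate in both lines and the 5 on the right lower, and NIPSNAP3A is drawn at 0 in KYSE30 L-lactate, where its variant-only PAC was not listed.

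A change of distal usage of 10 points or more between control and L-lactate marked a pair as lengthened or shortened. An unlisted PAC was taken as having no tags, so a PAC that was listed in only 1 of the compared libraries could by itself mark its pair. NIPSNAP3A in KYSE30 is such a case. Of the 378 pairs of a variant-only and a canonical PAC, 304 were listed in all 4 libraries. The counts below were not recomputed for those pairs alone. With the variant-only PAC proximal, 8 of 229 genes in KYSE30 were lengthened and 18 shortened, against a background over all genes with 2 PACs of 4.35% lengthened and 6.94% shortened. In TE-1, 13 of 232 were lengthened and 12 shortened, against 7.2% and 5.56%. With the variant-only PAC distal, 5 of 135 were lengthened and 6 shortened in KYSE30, and 7 of 137 lengthened and 2 shortened in TE-1. The median change was -0.22 points in KYSE30 and 0.31 points in TE-1 with the variant proximal.

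The TPM of variant-only PACs was close between L-lactate and control. The median log2 ratio of TPM plus 1 was 0.01 in KYSE30 (1809 PACs listed in both libraries) and 0.05 in TE-1 (1801 PACs), and 0.00 and 0.04 over all PACs. At 1.5-fold, 42 PACs were higher (2.32%, 1.72 to 3.12) and 38 lower (2.10%, 1.53 to 2.87) with L-lactate in KYSE30, where the background over all PACs was 2.86% in each direction. In TE-1, 54 were higher (3.00%, 2.31 to 3.89) and 33 lower (1.83%, 1.31 to 2.56), with a background of 3.59% higher and 2.36% lower. Canonical PACs gave 2.26% higher and 2.37% lower in KYSE30, and 2.85% and 1.73% in TE-1. The shares of variant-only PACs were thus at or near the background in both lines. In bulk RNA a change in the number of cells that make a transcript and a change per cell cannot be told apart.

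Of 1672 variant-only PACs listed in all libraries, 5 were higher and 2 lower past 1.5-fold in both lines, and 1 went opposite ways. The background over all PACs was 0.418% higher and 0.279% lower. GOLT1B had 5.79 TPM in KYSE30 control and 15.1 TPM with L-lactate, and 10.4 and 19.0 TPM in TE-1, so the L-lactate libraries held 2.60-fold (1.81 to 3.79) and 1.83-fold (1.42 to 2.36) the control. RNF2, the E3 ligase RING1B of Polycomb complex 1, had 6.46 and 13.0 TPM in KYSE30 and 8.37 and 14.996 TPM in TE-1 at the middle of its 3 PACs, or 2.01-fold (1.40 to 2.90) and 1.79-fold (1.35 to 2.38). BET1, a SNARE of ER-to-Golgi traffic, has 1 PAC, shown above, whose site lies at the start of the 3′ UTR with the hexamer ahead of that UTR. The BET1 PAC had 21.95 and 11.8 TPM in KYSE30 and 27.2 and 15.1 TPM in TE-1, or 0.540-fold (0.410 to 0.706) and 0.555-fold (0.447 to 0.686). In each of these 3 genes both L-lactate libraries lay on the same side of both controls. The genes were picked for passing 1.5-fold the same way in both lines, which favours this order, so it adds no separate evidence. The other 4, below 5 TPM in at least 1 library, were ARPIN, PNPT1 and SLC35C2 (higher) and NSD3 (lower), named because they complete the count.

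**Figure D5:**
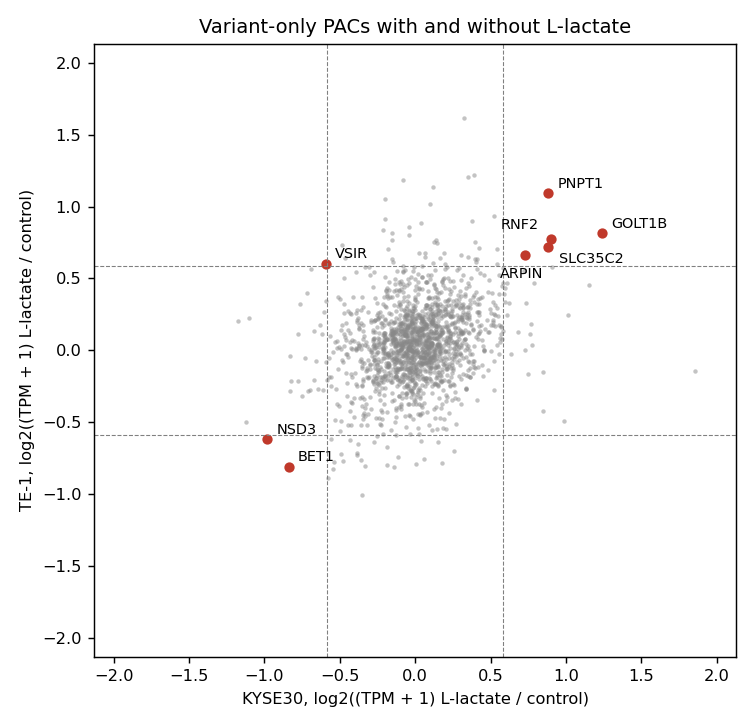
Log2 ratio of TPM plus 1, L-lactate over control, in KYSE30 (x) and TE-1 (y) for the 1672 variant-only PACs listed in all 4 libraries. Dashed lines mark 1.5-fold, and the 8 red points passed it in both lines, 5 higher in both, 2 lower in both and VSIR opposite ways.

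Lines differed in far more variant-only PACs than treatments did. In both treatments, 174 of 1672 (10.4%, 9.03 to 11.96) were at least 2-fold higher in KYSE30 and 166 (9.93%, 8.59 to 11.5) in TE-1, against a background of 11.6% and 10.7% over all PACs. CDH3, the adhesion protein P-cadherin, had 288 and 333 TPM in KYSE30 (control, then L-lactate) and 1.25 and 1.54 TPM in TE-1. CGN, the tight junction protein cingulin, had 73.9 and 90.7 TPM in KYSE30 and 1.44 and 2.01 TPM in TE-1. ID1, an inhibitor of bHLH transcription factors, had 649 and 676 TPM in KYSE30 and 39.0 and 45.9 TPM in TE-1. TPD52L1, of the D52 protein family, had 96.2 and 104 TPM in KYSE30 and 7.12 and 7.91 TPM in TE-1. These 4 genes have a single 3′ UTR PAC above the minimum, so the difference is not one of usage between such PACs. Ends below the minimum or outside annotated 3′ UTRs were not counted. KPNB1, the nuclear import receptor importin β1, had a variant-only PAC upstream of 2 others, at 147 and 139 TPM in KYSE30 and 5.10 and 8.15 TPM in TE-1. Its dominant site was at position 47683639 in KYSE30, where the class was read, and at 47683535 in TE-1.

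On the TE-1 side, PITX1, a homeobox factor, had 4.44 and 2.93 TPM in KYSE30 and 56.1 and 60.9 TPM in TE-1. RASA3, a Ras GTPase-activating protein, had 2.16 and 2.79 TPM in KYSE30 and 38.2 and 47.5 TPM in TE-1. SOAT1, which esterifies cholesterol, had the third of its PACs at 3.77 and 2.65 TPM in KYSE30 and 53.6 and 65.2 TPM in TE-1, and its last PAC, also variant-only, at 7.27 and 7.11 TPM against 83.6 and 68.5 TPM. BACE2, an aspartyl protease, had 1.75 and 2.09 TPM against 34.2 and 33.7 TPM. The dominant site of the BACE2 PAC was at position 41275948 in KYSE30 and at 41275852 in TE-1, where the class was read. In the ratio of controls, KYSE30 held 0.0513 (BACE2) to 0.0792 (PITX1) of the TE-1 TPM of BACE2, RASA3, PITX1 and the third PAC of SOAT1. These 4 PACs passed the minimum of 5 TPM through TE-1 alone, and those of CDH3 and CGN through KYSE30 alone. Their class was read in the line where they are high, and their values in the other line rest on 13 to 33 tags. The genes named for either line were picked for their ratio between lines, so its size adds no separate evidence.

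The authors joined sites within 500 nt, so a PAC can hold several. With and without L-lactate, the same position was dominant in 94.8% of variant-only PACs with more than 5 TPM in both libraries, in either line. The dominant site lay more than 24 nt away in 26 of 1584 (1.64%, 1.12 to 2.39) in KYSE30, 15 downstream and 11 upstream, against a background of 1.43% over all PACs. In TE-1 it was 30 of 1553 (1.93%, 1.36 to 2.74), 17 downstream and 13 upstream, against 1.24%. Canonical PACs gave 1.09% (0.87 to 1.37) in KYSE30 and 0.84% (0.65 to 1.10) in TE-1, so the TE-1 interval of variant-only PACs lies above that of canonical PACs, while those of KYSE30 overlap. PACs with neither signal gave more, at 3.34% (2.51 to 4.44) in KYSE30 and 2.49% (1.78 to 3.45) in TE-1.

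The site lay away in the same direction in both lines in 3 PACs. In IFT57, of intraflagellar transport, it was 187 nt downstream with L-lactate in KYSE30 and in TE-1. In MARCHF6, an E3 ligase of the ER membrane, it was 50 nt upstream in both. In PAWR, the pro-apoptotic protein PAR-4, it was 180 nt downstream in KYSE30 and 349 nt in TE-1, with 9.83 and 13.8 TPM in KYSE30 and 21.7 and 19.1 TPM in TE-1. The dominant site of the PAWR PAC had AUUAAA 15 nt before it in TE-1 control alone, neither hexamer in KYSE30 control and TE-1 L-lactate, and AAUAAA 21 nt before it in KYSE30 L-lactate. The dominant positions in these 3 PACs rested on 22 to 188 tags each.

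Of the genes the study names besides PAWR, BTF3L4, a homologue of a nascent-chain-binding factor, had its most downstream PAC variant-only, at 9.29 and 9.90 TPM in KYSE30 and 7.20 TPM in TE-1 L-lactate, unlisted in TE-1 control. The signal lay 18 nt before its site in both L-lactate libraries, and the site in KYSE30 control had neither hexamer. FDX1, the mitochondrial ferredoxin, was not counted as variant-only, since its single PAC held neither hexamer at the dominant site of the library with the highest TPM (TE-1 L-lactate). The dominant site of FDX1 in the 2 control libraries did have AUUAAA, 15 nt before it in KYSE30 and 25 nt in TE-1, and those of both L-lactate libraries had neither hexamer. It was at position 110462697 in KYSE30 control and 110463249 in KYSE30 L-lactate, and at 110462565 in TE-1 control and 110463256 in TE-1 L-lactate. The study gives AUUAAA as the proximal signal of FDX1 and reports a longer FDX1 3′ UTR with L-lactate in both lines. With 1 library per group this move was not tested. FAM98B had no variant-only PAC. Taking each library's own dominant site, 1887 members were variant-only in every library that listed them and 60 changed class in at least 1, to canonical in 42 and to neither in 20.

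Just inside the minimum were KATNBL1, PPM1M and ZBTB44, each highest in TE-1 control at 5.003 TPM. Just outside were SCYL3, CCDC127 and SNX33, each highest in KYSE30 control at 4.983 TPM. At any TPM, 2286 variant-only 3′ UTR PACs were listed, of which 339 were at or under the minimum.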

How the data were processed

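PAS-seq was done on total RNA of KYSE30 and TE-1 cells, 1 library per group. The study's methods used HISAT2 for alignment to GRCh38 and CAGEr for calling sites. The deposited PACs are groups of sites that passed a minimum of 1 TPM, with a gap of at most 24 nt for a first round of grouping and of 500 nt for a second, so neighbouring sites can share a PAC. Lone sites needed 3 TPM. The study's methods describe the second round for PACs found in every sample and above 5 TPM. The submitters' processing notes name GRCh38.p14. Tool versions of HISAT2 and CAGEr are not given in the sources used here. The TPM values deposited by the authors are RPM, the tags of a PAC scaled to its library, with no length correction. The tables also hold, as deposited by the authors, positions and the TPM of the dominant site. 0 columns of other samples were present.

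Here each PAC was placed by the dominant site of the library with its highest TPM, and hexamers were read from the reference genome of the same build (23 of 29 chromosome names were in it, and 8 of 20091 sites could not be read). Shares have Wilson, differences Newcombe, medians exact binomial and tag ratios exact conditional 95% intervals. Ratios were log2 of TPM plus a pseudocount of 1, and called at 1.5-fold (2-fold between lines), in PACs listed in the libraries compared. Usage within pairs instead took an unlisted PAC as having no tags. The scripts were tested on simulated data. The members, gene lists and tests were chosen with earlier results of these data known. Named PACs were the 10 with the highest TPM, up to 5 per direction past 1.5-fold in both lines (TPM above 5 in all libraries), 5 per line for differences between lines, 6 pairs per order with the highest TPM, 5 pairs per direction of usage, up to 6 moved sites, genes of the 3′ end list, FDX1, PAWR, BTF3L4 and FAM98B, and the 3 PACs on each side of the minimum. Some PACs that this rule names are not reported here. Software was pysam 0.24.0, SciPy 1.17.1, matplotlib 3.10.9, pandas 2.3.3 and NumPy 2.4.6 under Python 3.11.15. Depth was 7174991 to 10393799 tags. Alternatives changed the minimum, the window, the site, the hexamers, the pseudocount, the scaling, the fold and the pairs.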

Additional observations from a re-analysis of the deposited data

Results flagged for a closer look

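In the following results the larger count or the direction differed between the 2 lines, and with 1 library per group these differences between lines were not tested. In genes with a variant-only proximal and a canonical distal PAC, 8 of 229 were lengthened and 18 shortened with L-lactate in KYSE30, and 13 of 232 lengthened and 12 shortened in TE-1. With a canonical proximal and a variant-only distal PAC, 5 of 135 were lengthened and 6 shortened in KYSE30, and 7 of 137 lengthened and 2 shortened in TE-1. The counts of 13 and 12 and of 5 and 6 are nearly even and show no lean. Over all genes with 2 PACs, 69 of 1585 were lengthened and 110 shortened in KYSE30, and 114 of 1583 lengthened and 88 shortened in TE-1. The difference between lines in the larger count was thus not particular to pairs with a variant-only PAC. All these counts of pairs took an unlisted PAC as having no tags. The variant-only PAC of VSIR, the immune checkpoint protein VISTA, had a log2 ratio of -0.59 in KYSE30 (31.4 TPM in control, 20.5 TPM with L-lactate) and 0.60 in TE-1 (3.08 and 5.20 TPM). The dominant site of the ASXL2 PAC lay 274 nt downstream with L-lactate in KYSE30 and -274 nt in TE-1, on the same scale, that is upstream. That of the ZNF148 PAC lay -110 nt in KYSE30 and 99 nt in TE-1.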

How the results depend on the processing

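Each main value was recomputed under those of 12 alternatives that bear on it, of which 2, pairs within the same 3′ UTR exon and pairs listed in all 4 libraries, were chosen after seeing the data. Of 74 recomputed values, 57 stayed within the interval of the value reported and 17 did not. With a minimum TPM of 10, the median TPM was 24.9 for variant-only and 29.9 for canonical PACs, the shares higher with L-lactate were 1.57% in KYSE30 and 2.11% in TE-1, and the share with a moved site in KYSE30 was 1.08%. With more than 5 TPM in all 4 libraries, the medians were 29.3 and 34.9 TPM, and 46.02% of canonical PACs were upstream of another. Both sets hold fewer and more abundant PACs by construction. Without PACs that also hold a rarer hexamer, the variant-only share was 12.4%. With a pseudocount of 0.5, 3.26% were higher in KYSE30. At 2-fold, 0.276% were higher and 0.221% lower in KYSE30, and 0.4997% higher and 0.0555% lower in TE-1. Moved sites past 100 nt were 1.29% in TE-1. In the window 40 to 100 nt, UGUA was found in 46.4% and 42.1%. The cause of the pseudocount's effect was not tested. A window of 40 nt, the site of the library with the lowest TPM, rescaling to the listed PACs and both choices of pairs moved no value out of its interval. No paired analysis was possible because the labels give no replicate numbers and each group has 1 library. Depth limits PACs near 5 TPM, which rest on few tags.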
